A study of Mus musculus with 80 samples.

Results

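Txnip, which encodes thioredoxin-interacting protein, and the alpha-arrestin genes Arrdc1, Arrdc2, Arrdc3 and Arrdc4 were taken by symbol from a table of read counts over 20105 genes, and all 5 were found there. Txnip and Arrdc3 were chosen by measured values, namely a response to fasting that differed between hepatocyte and macrophage nuclei. Their values in tagged nuclei by feeding state, time and cell type are therefore given for these 2 genes as descriptions with no test. They were tested only in tagged nuclei over whole liver nuclei, averaged over feeding states and times, and between fasted and fed whole liver pools. Arrdc1, Arrdc2 and Arrdc4 were taken by family name and are tested throughout. The 5 genes had between 19 and 12048 reads per library and passed the filter on low counts in each comparison. A further gene of the same name series, Arrdc5, had a read in 3 of 80 libraries, never more than 1, and was not analysed.

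Nuclear RNA of the liver was sequenced from female mice of 2 lines that carry a nuclear tag, in hepatocytes (HEP-INTACT) or in macrophages (MAC-INTACT). INTACT is a method that isolates the tagged nuclei of a given cell type from a tissue by affinity purification. Mice were fasted from ZT12, the start of the active phase, and livers were taken after 3, 8, 16 or 24 h, which is ZT15, ZT20, ZT4 and ZT12 of the light cycle. Mice fed ad libitum were killed at the same times. The groups were fasted hepatocyte nuclei, fed hepatocyte nuclei, fasted macrophage nuclei and fed macrophage nuclei, each at 4 times with 4 libraries per time. Unpurified whole liver nuclei of the same 2 lines, fasted and fed, gave 1 library per line, feeding state and time. Each was a pool of 4 mice and is named as input in the count table. The sources used here do not give the promoter that drives each tag, the number of mice behind a tagged library, or whether the pooled mice also gave tagged libraries. P-values therefore measure the spread between libraries, which may be technical. Length of the fast and time of day cannot be told apart among fasted libraries. Each cell type came from its own line, with its own mice and its own run of library numbers. In every comparison of the cell types, cell type, line and run therefore cannot be told apart.

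Alpha-arrestins are adaptor proteins of the arrestin fold that sit at membranes and, through PPxY motifs, bring ubiquitin ligases of the NEDD4 family to membrane proteins, which are then sorted for internalization or degradation. Txnip is the best known of them: it binds thioredoxin, promotes the removal of glucose transporters from the cell surface, and is transcribed under the glucose-sensing factors MondoA (gene Mlxip) and ChREBP (gene Mlxipl) with their partner Mlx. Arrdc4 is its closest relative and also restrains glucose uptake, Arrdc3 traffics cell-surface proteins such as integrin beta4, Arrdc1 drives the release of vesicles from the plasma membrane, and Arrdc2 is a less studied adaptor.

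In the coordinates of the count table (mm10), Txnip lies at chr3:96557957-96561857 on the plus strand, Arrdc1 at chr2:24925352-24935281 on the minus strand, and Arrdc2 at chr8:70835138-70839720 on the minus strand. Arrdc3 lies at chr13:80883422-80896043 on the plus strand and Arrdc4 at chr7:68736994-68749238 on the minus strand. The 250 bases before the listed start of each gene, from RefSeq's promoter table for GRCm38.p6, were searched on both strands for 4 motifs. These were the E-box CACGTG, the carbohydrate response element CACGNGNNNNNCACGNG that Mondo and Mlx factors bind, the FoxO core GTAAACA, and the glucocorticoid response element GNACANNNTGTNC. The Txnip window is shown because it held 3 of these motifs, the Arrdc4 window because it held an E-box, and the Arrdc2 window because Arrdc2 passed the fasting test in both cell types and its window held none. Sequences run 5′ to 3′ on the strand of the gene and end at the base before the start, and capitals mark motif matches.
Txnip, chr3:96557707-96557956, plus strand: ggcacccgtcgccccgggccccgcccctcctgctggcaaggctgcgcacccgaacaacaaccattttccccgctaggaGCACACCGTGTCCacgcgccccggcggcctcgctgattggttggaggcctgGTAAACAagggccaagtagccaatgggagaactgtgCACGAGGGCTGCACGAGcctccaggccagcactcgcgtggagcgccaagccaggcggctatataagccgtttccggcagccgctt
Arrdc4, chr7:68749239-68749488, minus strand: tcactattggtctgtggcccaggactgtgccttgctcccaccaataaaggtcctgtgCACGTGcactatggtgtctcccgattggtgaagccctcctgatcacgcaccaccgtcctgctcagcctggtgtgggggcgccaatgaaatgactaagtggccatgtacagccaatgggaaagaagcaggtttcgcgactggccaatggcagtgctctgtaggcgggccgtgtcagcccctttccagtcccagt
Arrdc2, chr8:70839721-70839970, minus strand: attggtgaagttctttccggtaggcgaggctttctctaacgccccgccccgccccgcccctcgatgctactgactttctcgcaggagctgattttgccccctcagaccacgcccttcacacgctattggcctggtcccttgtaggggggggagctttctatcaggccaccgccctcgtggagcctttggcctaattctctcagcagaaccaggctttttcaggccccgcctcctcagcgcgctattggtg
In the Txnip window, the carbohydrate response element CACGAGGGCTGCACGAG lay 85 to 69 bases before the start, and this motif was found in 0.0457% of the 32817 windows of RefSeq genes. The FoxO core GTAAACA lay 121 to 115 bases before the Txnip start and was found in 3.16% of windows. The match to the glucocorticoid response element, GCACACCGTGTCC, lay 172 to 160 bases before the Txnip start and was found in 0.387% of windows. The E-box of Arrdc4 lay 193 to 188 bases before its start and was found in 6.02% of windows. No match overlapped another, although an E-box can form part of a carbohydrate response element. None of the 4 motifs matched in the windows of Arrdc1, Arrdc2 or Arrdc3. A match is a string of letters and not a measured binding site, and these files hold no measurement of binding.

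Library totals were 12597786 to 30089561 reads for tagged hepatocyte nuclei, 14968505 to 44694933 for tagged macrophage nuclei and 13246494 to 35514304 for the pools. The tagged cell types were checked by summed marker levels in CPM, read counts scaled to library size. Over 15 Kupffer cell and macrophage markers the median library had 52.6 CPM in hepatocyte nuclei and 5669 CPM in macrophage nuclei. Over 15 hepatocyte markers the median was 18922 CPM in hepatocyte nuclei and 9167 CPM in macrophage nuclei, so hepatocyte transcripts were abundant in macrophage libraries. That sum was also higher with fasting in macrophage nuclei, with a median of 11152 CPM (7237.5 to 24389 CPM) in fasted and 6731 CPM (4772 to 12755 CPM) in fed libraries. In hepatocyte nuclei it was 24187 CPM in fasted and 18078 CPM in fed libraries. Over 8 cholangiocyte markers the median in hepatocyte nuclei was 77.1 CPM in fasted and 299.7 CPM in fed libraries, and for 1 of the 8, Onecut1, a factor that hepatocytes also express, it was 73.2 CPM in fasted and 293.5 CPM in fed libraries. Over 12 sinusoidal endothelial markers it was 187 CPM in hepatocyte and 758 CPM in macrophage nuclei. The part of these cells in the results was not tested. Replicate 3 of fasted macrophage nuclei at 3 h stood apart, with a median correlation of 0.932 with the other libraries of its group (next lowest 0.965 among all tagged libraries) and the highest hepatocyte marker sum of the macrophage libraries. Without it, 702 genes passed the fasting test in macrophage nuclei at 3 h, against 1716 with it, and the fasting effects of the 5 genes and the list counts at that time are given with and without it. An annotated antisense gene, Gm15441, spans all of Txnip, and 1700023H06Rik lies within Arrdc3 on the other strand. Neither is in the count table, and the sources used here do not say whether counting used the strand. If it did not, reads of the antisense genes cannot be told apart from those of Txnip and Arrdc3.

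The 5 genes differed widely in nuclear RNA per gene length. Txnip and Arrdc3 had the highest levels, and Arrdc1 in hepatocyte nuclei the lowest. Per kb of listed gene length, the median Txnip level was 7.96 CPM per kb in the 32 hepatocyte libraries (0.860 to 60.7) and 16.0 CPM per kb in the 32 macrophage libraries (6.19 to 31.0). For Arrdc3 the medians were 5.93 CPM per kb in hepatocyte nuclei (1.505 to 25.9) and 6.41 CPM per kb in macrophage nuclei (3.54 to 29.5). Txnip thus spanned a much wider range in hepatocyte nuclei than in macrophage nuclei. Median levels of Arrdc2 were 2.57 CPM per kb in hepatocyte nuclei (0.984 to 23.4) and 2.21 CPM per kb in macrophage nuclei (1.42 to 8.26). Arrdc4 had 0.862 CPM per kb in hepatocyte nuclei (0.300 to 2.30) and 1.30 CPM per kb in macrophage nuclei (0.783 to 2.20). Arrdc1 had 0.233 CPM per kb in hepatocyte nuclei (0.118 to 0.441) and 1.97 CPM per kb in macrophage nuclei (0.828 to 2.81), with no overlap between the cell types. The share of all genes without such overlap was not counted. Between fed hepatocyte and fed macrophage nuclei, 82.7% of 14011 genes passed the test.

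**Figure D1:**
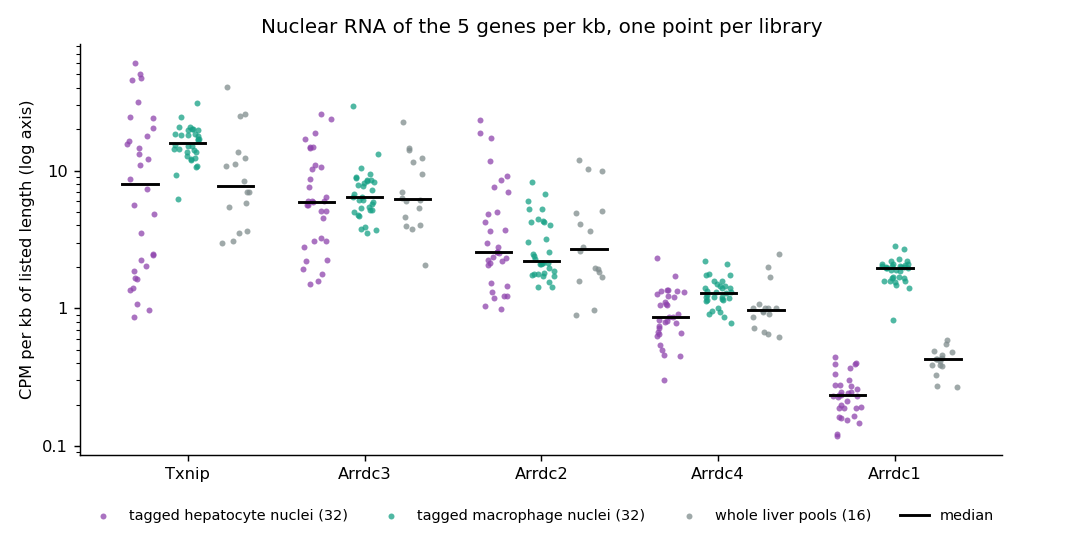
Level of each gene in CPM per kb of listed gene length on a log axis, 1 point per library, for tagged hepatocyte nuclei (32 libraries), tagged macrophage nuclei (32) and whole liver pools (16), with the median as a bar. Arrdc1 separates the cell types without overlap, with medians of 0.233 and 1.97 CPM per kb in hepatocyte and macrophage nuclei.

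Among fed mice, Arrdc1 was lower in hepatocyte than in macrophage nuclei and Arrdc4 slightly lower. The fed libraries are also the controls of the fasting contrasts, so Txnip and Arrdc3 are given as values here. Txnip had 14.996 ± 18.5 CPM in fed hepatocyte nuclei and 58.0 ± 11.97 CPM in fed macrophage nuclei (SD, n = 16 each), a log2 difference of -2.55 ± 0.19 (SE). Arrdc1 had 2.61 ± 0.800 CPM in fed hepatocyte nuclei and 20.2 ± 3.67 CPM in fed macrophage nuclei, a log2 difference of -3.02 ± 0.10 (edgeR adjusted p = 1.00e-33). The 16 fed hepatocyte libraries ran from 1.21 to 3.96 CPM of Arrdc1, and the 16 fed macrophage libraries from 13.9 to 27.9 CPM. Arrdc4 had 13.2 ± 5.23 CPM in fed hepatocyte nuclei and 16.5 ± 4.07 CPM in fed macrophage nuclei (log2 difference -0.38 ± 0.14, edgeR adjusted p = 0.00858). Arrdc3 had 129.6 ± 81.4 CPM in fed hepatocyte nuclei and 77.2 ± 26.3 CPM in fed macrophage nuclei (log2 difference 0.57 ± 0.21). Arrdc2 did not pass, with 13.5 ± 6.94 CPM in fed hepatocyte nuclei and 10.6 ± 5.53 CPM in fed macrophage nuclei (log2 difference 0.26 ± 0.19, edgeR adjusted p = 0.195). Thus 2 of the 3 genes tested passed, where 82.7% of all 14011 genes did. Without replicate 3 of fed macrophage nuclei at 24 h, Arrdc2 also passed (0.41, edgeR adjusted p = 0.0376).

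Tagged nuclei were set against whole liver nuclei within each feeding state and time. For Txnip and Arrdc3 this average over feeding states uses the tagged libraries by which they were chosen. Their p-values here may therefore not be independent of that choice. On this average, Arrdc1 and Txnip were higher in macrophage nuclei and lower in hepatocyte nuclei than in whole liver. Arrdc2, Arrdc3 and Arrdc4 did not pass in either cell type. For Txnip in hepatocyte nuclei the direction differed between feeding states. Fasted means were 116, 180, 34.1 and 52.6 CPM at 3, 8, 16 and 24 h, against 100.4, 157, 32.6 and 41.8 CPM in the pools. Fed means were 7.26, 5.18, 7.09 and 40.5 CPM, against 21.2, 13.8, 27.2 and 43.7 CPM. Fasted macrophage nuclei at 16 h were also below their pool (83.0 against 97.1 CPM). Arrdc1 was lower in tagged hepatocyte nuclei by a log2 difference of -1.03 ± 0.13 (edgeR adjusted p = 1.75e-08) and higher in tagged macrophage nuclei by 2.37 ± 0.11 (edgeR adjusted p = 3.67e-20), a 5.15-fold difference. Txnip was lower in tagged hepatocyte nuclei by -0.66 ± 0.25 (edgeR adjusted p = 0.0313) and 2.07-fold higher in tagged macrophage nuclei (log2 difference 1.05 ± 0.22, edgeR adjusted p = 4.80e-05). Without the fed pool of 3, 8 or 16 h the log2 difference in hepatocyte nuclei was -0.49, -0.52 or -0.41 and did not pass. Only pools were left out in this comparison, so how far the value depends on single tagged libraries was not tested. Arrdc2 had log2 differences of 0.33 ± 0.23 in hepatocyte nuclei (edgeR adjusted p = 0.240) and -0.32 ± 0.17 in macrophage nuclei (edgeR adjusted p = 0.0929). Arrdc3 had 0.20 ± 0.24 in hepatocyte nuclei (edgeR adjusted p = 0.508) and -0.36 ± 0.19 in macrophage nuclei (edgeR adjusted p = 0.0790). For Arrdc4 they were 0.09 ± 0.15 in hepatocyte nuclei (edgeR adjusted p = 0.636) and 0.08 ± 0.14 in macrophage nuclei (edgeR adjusted p = 0.622). The background was 49.5% of genes called for hepatocyte nuclei and 77.3% for macrophage nuclei, so 2 of 5 called genes are a share near or below it. In macrophage nuclei, leaving out a pool brought Arrdc2 past the threshold without the fasted pool of 16 h (-0.41), and Arrdc3 without the fasted pool of 3 h (-0.44) or 24 h (-0.46). In whole liver libraries, fewer cells of a type and less RNA per cell cannot be told apart.

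In hepatocyte nuclei, Txnip was far higher in fasted than in fed mice early in the fast and not at its end. At 3 h Txnip had 194, 93.8, 96.1 and 79.1 CPM in fasted hepatocyte nuclei, against 5.25, 9.42, 6.41 and 7.95 CPM in fed hepatocyte nuclei. At 8 h it had 237, 122, 176 and 184 CPM in fasted nuclei, against 3.76, 4.21, 5.49 and 7.24 CPM in fed nuclei. The lowest fasted library at 8 h was thus far above the highest fed one, and the fitted level was 36.0-fold higher (log2 5.17 ± 0.47, SE). At 3 h the libraries did not overlap either, with a 16.5-fold higher fitted level (log2 4.04 ± 0.44), although replicate 1 of the fasted libraries stood well above the other 3. At 16 h Txnip had 13.8, 60.4, 28.5 and 33.6 CPM in fasted nuclei, against 8.80, 6.49, 3.36 and 9.72 CPM in fed nuclei, still without overlap and 4.82-fold higher (log2 2.27 ± 0.42). At 24 h it had 69.4, 47.2, 51.4 and 42.6 CPM in fasted nuclei, against 21.9, 56.9, 18.9 and 63.99 CPM in fed nuclei. These overlap, with 2 fed libraries low and 2 high, and the log2 fold change was 0.39 ± 0.39. Across the 4 times, 41.1%, 36.5%, 15.7% and 25.1% of the genes tested in hepatocyte nuclei had fasted and fed libraries that did not overlap. In hepatocyte nuclei 39.9%, 38.7%, 18.1% and 24.0% of genes passed the fasting test at 3, 8, 16 and 24 h.

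In macrophage nuclei, fasted and fed libraries of Txnip overlapped at every time. Txnip had 46.6, 59.0, 24.1 and 76.8 CPM in fasted macrophage nuclei at 3 h, against 48.3, 64.8, 42.4 and 70.0 CPM in fed macrophage nuclei. Its values at 8 h were 47.4, 80.5, 77.6 and 66.6 CPM in fasted nuclei, against 65.8, 70.3, 41.6 and 50.1 CPM in fed nuclei. Neither time separates the groups, and the log2 fold changes were -0.16 ± 0.27 at 3 h and 0.27 ± 0.27 at 8 h. At 16 h the gene had 59.7, 121, 55.5 and 95.7 CPM in fasted nuclei, against 71.2, 59.1, 53.4 and 55.6 CPM in fed nuclei. The 24 h values were 53.6, 76.9, 81.4 and 78.7 CPM in fasted nuclei, against 72.0, 71.9, 36.3 and 54.8 CPM in fed nuclei. Higher fasted libraries were present at both late times, but within the range of overlap, with log2 fold changes of 0.49 ± 0.27 at 16 h and 0.29 ± 0.27 at 24 h. Without the library that stands apart, the value at 3 h was 0.06, of the opposite sign. The fasting effect in hepatocyte nuclei minus that in macrophage nuclei was 4.24 ± 0.51 at 3 h, 4.98 ± 0.52 at 8 h, 1.85 ± 0.50 at 16 h and 0.10 ± 0.48 at 24 h on the log2 scale. Without a library, this difference ran from 3.90 to 4.48 at 3 h and from 4.81 to 5.19 at 8 h, and at 24 h its sign turned (-0.14 to 0.42). Cell type and mouse line cannot be told apart in this difference, and the fasted whole liver pools of the 2 lines, described below, also differed in their course. The hepatocyte marker sum was higher in the fasted macrophage libraries, and its part in the Txnip values there was not tested.

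Arrdc3 in hepatocyte nuclei was lower in fasted mice at the end of the fast, with overlapping libraries before. Arrdc3 had 22.2, 24.4, 28.1 and 19.0 CPM in fasted hepatocyte nuclei at 24 h, against 185, 235, 327 and 215 CPM in fed hepatocyte nuclei. The highest fasted library was far below the lowest fed one, and the log2 fold change was -3.34 ± 0.52. At 3 h it had 41.1, 110.3, 28.0 and 63.8 CPM in fasted nuclei, against 75.9, 96.4, 134 and 129 CPM in fed nuclei (log2 -0.78 ± 0.48). At 8 h the values were 81.6, 35.0, 74.0 and 19.7 CPM in fasted nuclei, against 38.6, 71.0, 57.2 and 70.5 CPM in fed nuclei (log2 -0.11 ± 0.48). Fasted libraries were spread widely at 3 and 8 h, both above and below fed ones. At 16 h Arrdc3 had 187, 75.7, 63.7 and 297 CPM in fasted nuclei, against 75.7, 38.6, 139 and 186 CPM in fed nuclei (log2 0.53 ± 0.47). The spread within each group at 16 h was as wide as the difference between them. Leaving out a library turned the sign at 8 h (-0.40 to 0.18) and at 16 h (-0.01 to 0.91).

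Arrdc3 in macrophage nuclei was higher in fasted mice at 8 h without overlap, and overlapped at the other times. At 8 h it had 65.4, 108, 77.2 and 119 CPM in fasted macrophage nuclei, against 63.3, 47.4, 44.6 and 49.4 CPM in fed macrophage nuclei (log2 0.86 ± 0.34). At 3 h it had 60.3, 108, 99.2 and 107 CPM in fasted nuclei, against 71.7, 104, 59.5 and 46.6 CPM in fed nuclei (log2 0.39 ± 0.33). The gap at 8 h was narrow, since the lowest fasted library lay just above the highest fed one. At 16 h the gene had 67.8, 96.8, 166 and 372 CPM in fasted nuclei, against 80.9, 132, 91.1 and 103 CPM in fed nuclei (log2 0.81 ± 0.33). At 24 h it had 69.2, 80.8, 74.1 and 112 CPM in fasted nuclei, against 76.7, 114, 65.2 and 85.6 CPM in fed nuclei (log2 -0.04 ± 0.33). Replicate 4 of fasted nuclei at 16 h stood far above the rest of its group, and without it the value at 16 h was 0.14. Without the library that stands apart, the value at 3 h was 0.33. Of 15 hepatocyte markers, 4, 8, 3 and 1 passed as higher in fasted macrophage nuclei at 3, 8, 16 and 24 h (1 at 3 h without that library), and their part in the Arrdc3 values was not tested. Over all genes tested in macrophage nuclei, 15.4%, 21.5%, 17.7% and 19.8% did not overlap at 3, 8, 16 and 24 h. The hepatocyte minus macrophage difference was -1.11 ± 0.60 at 3 h, -0.89 ± 0.60 at 8 h, -0.22 ± 0.60 at 16 h and -3.30 ± 0.61 at 24 h. Its sign at 16 h turned with the libraries used (-0.76 to 0.46), and at 3 h it was -1.08 without the library that stands apart.

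**Figure D2:**
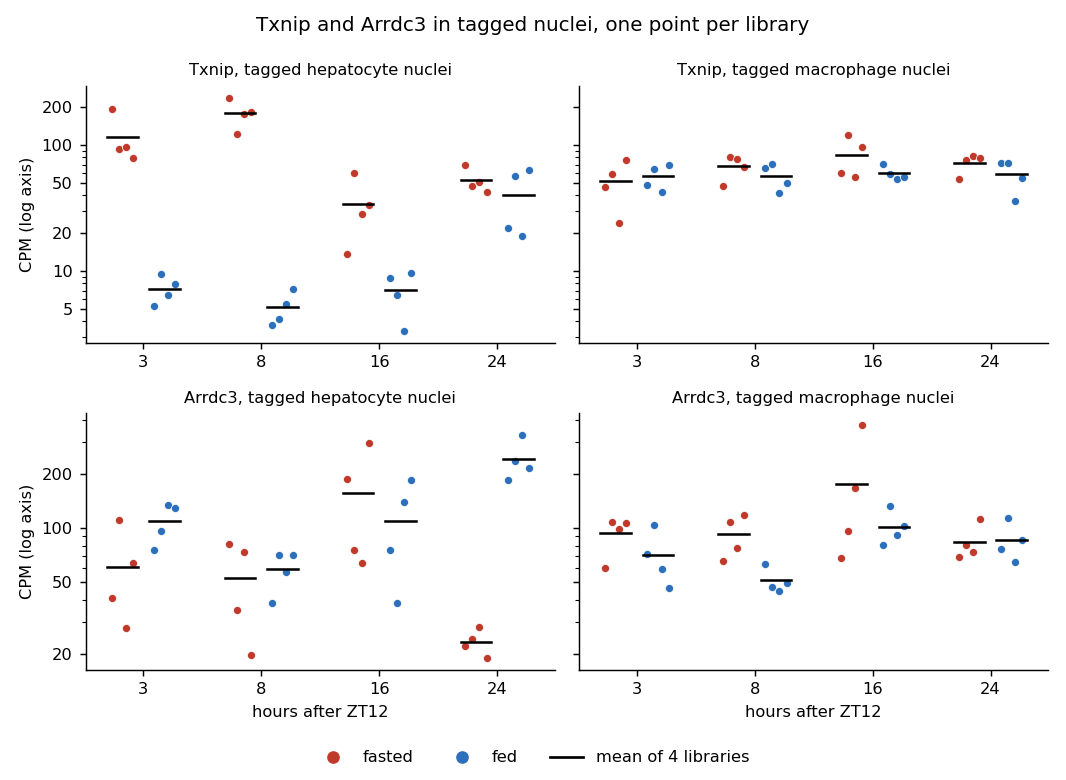
Txnip (top) and Arrdc3 (bottom) in CPM on a log axis against hours after ZT12, in tagged hepatocyte nuclei (left) and tagged macrophage nuclei (right), with 1 point per library, fasted left of fed at each time, and a bar at the mean of 4 libraries. In hepatocyte nuclei, fasted Txnip libraries lie above all fed ones at 3, 8 and 16 h, and fasted Arrdc3 libraries lie below all fed ones at 24 h (19.0 to 28.1 against 185 to 327 CPM).

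Arrdc2 rose at 3 h of fasting in both cell types, more so in hepatocyte nuclei, and its response in hepatocyte nuclei differed between times. Arrdc2 had 78.6, 41.7, 107 and 85.9 CPM in fasted hepatocyte nuclei at 3 h, against 11.8, 11.51, 10.9 and 10.2 CPM in fed hepatocyte nuclei. The groups were far apart, and Arrdc2 rose 7.37-fold (log2 2.88 ± 0.46, edgeR adjusted p = 1.68e-05). At 8 h it had 5.43, 22.0, 6.70 and 31.8 CPM in fasted nuclei, against 7.04, 10.5, 9.38 and 13.7 CPM in fed nuclei (log2 0.72 ± 0.45, edgeR adjusted p = 0.210). At 16 h the values were 4.72, 5.65, 4.51 and 5.61 CPM in fasted nuclei, against 9.79, 12.7, 5.99 and 11.8 CPM in fed nuclei (log2 -0.96 ± 0.46, edgeR adjusted p = 0.159). The fasted libraries at 8 h split into 2 low and 2 high, and those at 16 h lay below all fed ones. At 24 h Arrdc2 had 38.9, 53.6, 19.3 and 10.02 CPM in fasted nuclei, against 16.7, 34.7, 16.9 and 22.9 CPM in fed nuclei (log2 0.44 ± 0.43, edgeR adjusted p = 0.495). The difference between times was itself past the threshold in hepatocyte nuclei (edgeR F-test, adjusted p = 0.000534), as for 32.8% of all genes tested. Fitted to the 8 libraries of 16 h alone, the decrease at that time passed (log2 -0.95, edgeR adjusted p = 0.0384).

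In macrophage nuclei, Arrdc2 rose at 3 h and 8 h. At 3 h it had 20.3, 19.7, 11.8 and 27.6 CPM in fasted macrophage nuclei, against 7.14, 8.09, 8.17 and 11.4 CPM in fed macrophage nuclei, a 2.24-fold rise (log2 1.16 ± 0.30, edgeR adjusted p = 0.0114). At 8 h the gene had 13.9, 18.3, 24.2 and 14.5 CPM in fasted nuclei, against 9.63, 8.22, 8.57 and 9.80 CPM in fed nuclei, a 1.97-fold rise (log2 0.98 ± 0.29, edgeR adjusted p = 0.0274). At neither time did the libraries overlap. At 16 h Arrdc2 had 6.54, 6.53, 7.82 and 7.94 CPM in fasted nuclei, against 9.67, 9.84, 9.01 and 7.90 CPM in fed nuclei (log2 -0.31 ± 0.30, edgeR adjusted p = 0.522). At 24 h the values were 19.4, 19.4, 23.9 and 37.8 CPM in fasted nuclei, against 10.9, 10.4, 30.9 and 9.80 CPM in fed nuclei (log2 0.68 ± 0.29, edgeR adjusted p = 0.139). A single fed library, replicate 3 at 24 h, stood among the fasted values, and without it the 24 h value was 1.27 (edgeR adjusted p = 0.000539). The test of a difference between times did not pass for Arrdc2 in macrophage nuclei (edgeR F-test, adjusted p = 0.0833, with 4.65% of genes called). In macrophage nuclei 12.4%, 12.8%, 13.7% and 11.7% of genes passed the fasting test at 3, 8, 16 and 24 h. The 8 h call was lost without any of 5 libraries, namely fasted replicates 2 and 3 and fed replicates 1, 2 and 3 (log2 0.77 to 1.07 over all 8, highest edgeR adjusted p 0.1498). The 3 h call was lost with the 8 libraries of that time alone (edgeR adjusted p = 0.0536). It held without the library that stands apart (log2 1.33, edgeR adjusted p = 0.00753). Of the 15 hepatocyte markers, none was lower in fasted macrophage nuclei at 3 or 8 h. Their sum at 3 h was 11307 to 24389 CPM in fasted and 5976 to 10086 CPM in fed libraries, and at 8 h 9787 to 11938 CPM in fasted and 4772 to 6994 CPM in fed libraries. The part of hepatocyte RNA in the Arrdc2 rise in macrophage nuclei was not tested.

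The rise of Arrdc2 at 3 h was larger in hepatocyte than in macrophage nuclei, by a log2 difference of 1.76 ± 0.53 (edgeR adjusted p = 0.0253, with 10.6% of genes called). It missed the threshold without fasted replicate 3 of hepatocyte nuclei (1.57), without fasted replicate 3 of macrophage nuclei, the library that stands apart (1.58, edgeR adjusted p = 0.0661), or without fed replicate 4 of macrophage nuclei (1.61). The differences at 8, 16 and 24 h were -0.18 ± 0.54, -0.57 ± 0.55 and -0.25 ± 0.53 and did not pass (edgeR adjusted p = 0.888, 0.824 and 0.851), where 7.62%, 0.535% and 4.05% of genes did.

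Arrdc4, the relative of Txnip, fell in fasted hepatocyte nuclei at 8 h, the time at which Txnip was highest there. It had 3.67, 5.58, 6.13 and 8.86 CPM in fasted hepatocyte nuclei at 8 h, against 9.67, 10.1, 15.1 and 16.0 CPM in fed hepatocyte nuclei. All fasted libraries were below all fed ones, at 0.488 times the fed level in the fit (log2 -1.03 ± 0.31, edgeR adjusted p = 0.00955). At the other times Arrdc4 averaged 8.23 ± 3.33, 14.7 ± 4.83 and 12.7 ± 2.25 CPM in fasted nuclei at 3, 16 and 24 h, against 8.97 ± 1.17, 16.5 ± 8.52 and 14.6 ± 3.24 CPM in fed nuclei (SD, n = 4 each). Those libraries overlapped, with log2 fold changes of -0.07, -0.16 and -0.19 (edgeR adjusted p = 0.885, 0.759 and 0.692). Arrdc4 did not pass the test of a difference between times in hepatocyte nuclei (edgeR F-test, adjusted p = 0.205, with 32.8% of genes called). In macrophage nuclei it averaged 16.6 ± 2.52, 15.4 ± 3.39, 18.5 ± 7.05 and 14.2 ± 1.87 CPM in fasted nuclei over the 4 times. Fed macrophage nuclei averaged 14.2 ± 2.96, 19.3 ± 2.38, 18.5 ± 4.88 and 13.8 ± 3.48 CPM. No time passed in macrophage nuclei, with log2 fold changes of 0.20, -0.33, 0.02 and 0.03 (edgeR adjusted p = 0.539, 0.354, 0.970 and 0.966). Without the library that stands apart, the value at 3 h was 0.25 (edgeR adjusted p = 0.604). The difference between the cell types at 8 h did not pass either (log2 -0.64 ± 0.39, edgeR adjusted p = 0.336).

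Arrdc1, which separated the cell types without overlap, passed the fasting test at 1 of the 4 times in macrophage nuclei and at none in hepatocyte nuclei. In macrophage nuclei it fell at 3 h, with 14.6, 15.6, 8.22 and 15.5 CPM in fasted nuclei, against 15.8, 20.2, 16.6 and 20.7 CPM in fed nuclei. The libraries did not overlap, by a narrow margin, and the log2 fold change was -0.47 ± 0.15 (edgeR adjusted p = 0.0433). This call rests on the library that stands apart, the lowest of the 4: without it the log2 fold change was -0.31 (edgeR adjusted p = 0.190). It was also lost without fed replicate 2, 3 or 4 (-0.42, -0.50 and -0.41), with no filter on low counts (edgeR adjusted p = 0.0701) and with the 8 libraries of 3 h alone (edgeR adjusted p = 0.305). At 8, 16 and 24 h Arrdc1 averaged 19.9 ± 0.110, 19.2 ± 2.24 and 17.5 ± 1.94 CPM in fasted macrophage nuclei, against 23.4 ± 4.70, 21.1 ± 1.52 and 18.1 ± 3.37 CPM in fed macrophage nuclei, and did not pass (edgeR adjusted p = 0.365, 0.666 and 0.867). In the authors' deposited table of selected genes for macrophage nuclei, the log2 fold changes of Arrdc1 were -0.46, -0.28, -0.17 and -0.07 at 3, 8, 16 and 24 h, with adjusted p-values of 0.0637, 0.366, 0.681 and 1. The other 4 genes are not among the selected genes used here. In hepatocyte nuclei Arrdc1 averaged 1.49 ± 0.219, 2.15 ± 0.408, 3.21 ± 1.09 and 2.06 ± 0.409 CPM in fasted nuclei over the 4 times. Fed hepatocyte nuclei averaged 1.96 ± 0.541, 2.82 ± 0.391, 3.55 ± 0.582 and 2.12 ± 0.554 CPM, and no time passed (edgeR adjusted p = 0.294, 0.257, 0.714 and 0.954). Arrdc1 did not pass the test of a difference between times in hepatocyte or macrophage nuclei (edgeR F-test, adjusted p = 0.796 and 0.464). Its level in hepatocyte nuclei was lower than in whole liver, and macrophage RNA in these libraries was low but not at 0 (33.9 to 93.6 CPM over the 15 macrophage markers).

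**Figure D3:**
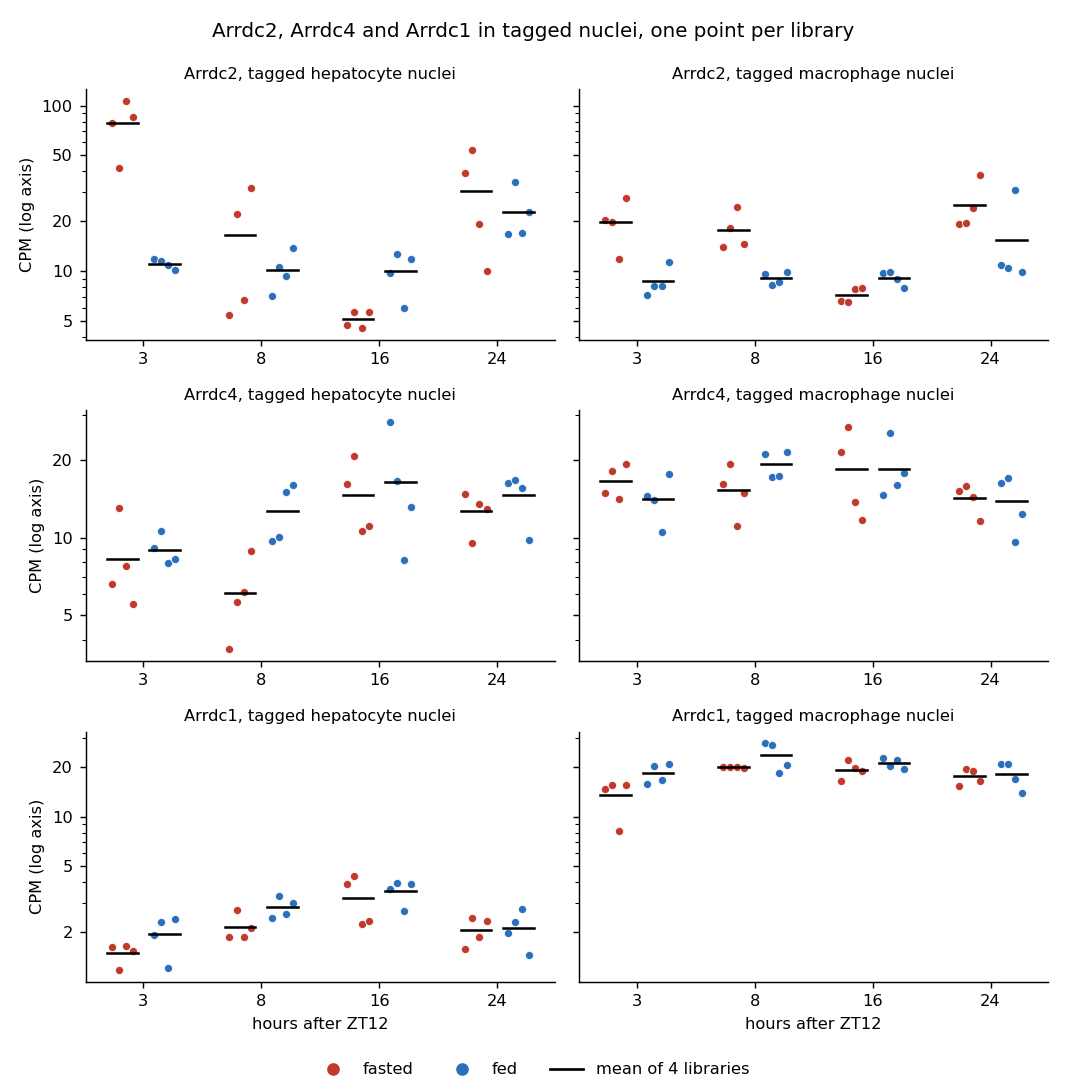
Arrdc2, Arrdc4 and Arrdc1 in CPM on a log axis against hours after ZT12, in tagged hepatocyte nuclei (left) and tagged macrophage nuclei (right), with 1 point per library, fasted left of fed, and a bar at the mean of 4 libraries. Arrdc2 at 3 h separates fasted from fed libraries in both cell types, with means of 78.3 and 11.1 CPM in fasted and fed hepatocyte nuclei and 19.8 and 8.69 CPM in fasted and fed macrophage nuclei.

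The whole liver pools hold the same feeding contrast in other libraries, and Txnip rose there as well. They are named as input and may come from the mice of the tagged libraries. The test in the pools can therefore not be taken as independent of the choice of Txnip and Arrdc3. Over the 4 times, Txnip rose 3.47-fold in fasted over fed pools (log2 1.80 ± 0.39, edgeR adjusted p = 0.00513, 8 against 8 pools), where 27.5% of genes passed. In pools of the hepatocyte line it had 100.4, 157, 32.6 and 41.8 CPM in fasted liver at 3, 8, 16 and 24 h, against 21.2, 13.8, 27.2 and 43.7 CPM in fed liver. In pools of the macrophage line it had 27.0, 53.3, 97.1 and 48.3 CPM in fasted liver, against 12.03, 11.7, 14.2 and 22.8 CPM in fed liver. The fasted pool was higher in 7 of 8 pairs of the same line and time, and the exception was the hepatocyte line at 24 h. Fasted pools of the 2 lines did not follow the same course, highest at 8 h in the hepatocyte line and at 16 h in the macrophage line. At single times, with 2 against 2 pools and given as values, the log2 fold change of Txnip was 1.85 ± 0.70, 2.91 ± 0.73, 1.87 ± 0.70 and 0.54 ± 0.68.

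Arrdc3 had a mean log2 fold change of -0.49 ± 0.34 in the pools and did not pass (edgeR adjusted p = 0.301). Its value was -0.67 ± 0.26 at 3 h, 0.07 ± 0.26 at 8 h, 0.69 ± 0.26 at 16 h and -2.19 ± 0.28 at 24 h. At 24 h Arrdc3 had 26.0 and 57.7 CPM in the fasted pools of the hepatocyte and macrophage lines, against 186 and 156 CPM in the fed pools. Both fasted pools at 24 h were thus well below both fed ones. Arrdc2 had a mean log2 fold change of 0.84 ± 0.44 (edgeR adjusted p = 0.177) and single values of 2.65 ± 0.37, 1.12 ± 0.37, -1.29 ± 0.39 and 0.66 ± 0.35 over the 4 times. At 3 h it had 54.9 and 46.9 CPM in the fasted pools of the hepatocyte and macrophage lines, against 8.92 and 7.69 CPM in the fed pools. At 16 h Arrdc2 was lower in both fasted pools, with 4.09 and 4.44 CPM, against 12.01 and 8.42 CPM in the fed pools. Arrdc4 had a mean of -0.38 ± 0.20 (edgeR adjusted p = 0.165), and at 8 h its level was 7.54 and 11.6 CPM in the fasted pools, against 12.4 and 30.5 CPM in the fed pools. Arrdc1 had a mean of 0.05 ± 0.14 (edgeR adjusted p = 0.805).

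**Figure D4:**
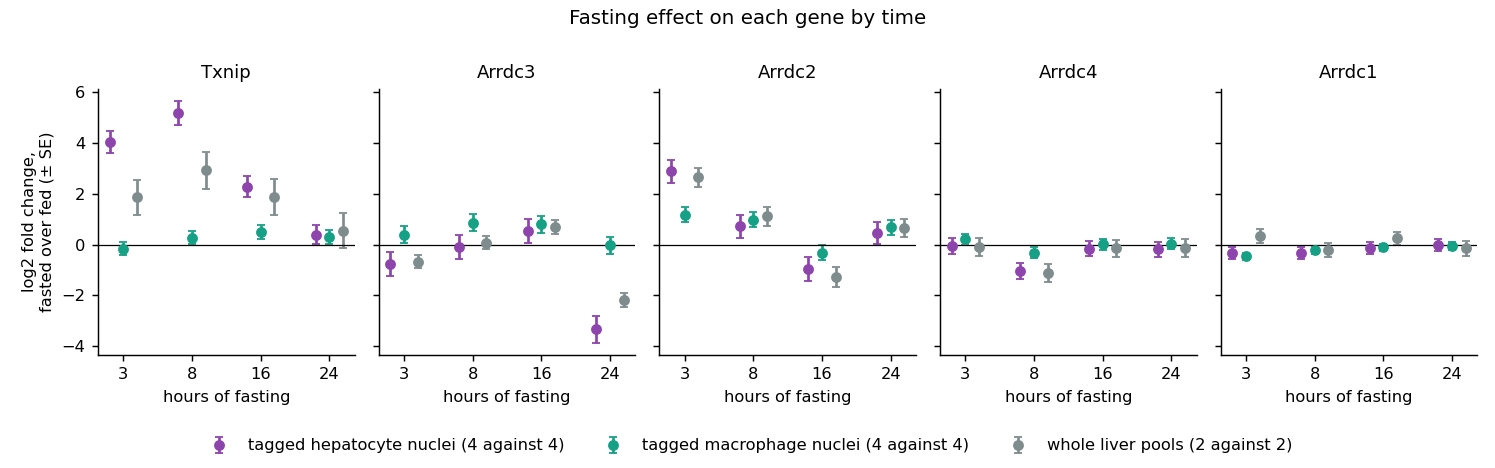
Log2 fold change of fasted over fed libraries (± SE) for each gene against hours of fasting, in tagged hepatocyte nuclei and tagged macrophage nuclei (4 against 4 libraries each) and in whole liver pools (2 against 2). Txnip reaches 5.17 in hepatocyte nuclei at 8 h while its macrophage values stay between -0.16 and 0.49, and Arrdc3 is at -3.34 in hepatocyte nuclei and -2.19 in the pools at 24 h.

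Of the 3 genes tested, time of day among fed mice changed Arrdc1 in hepatocyte nuclei and none in macrophage nuclei. Txnip averaged 7.26 ± 1.82, 5.18 ± 1.56, 7.09 ± 2.84 and 40.5 ± 23.3 CPM in fed hepatocyte nuclei at 3, 8, 16 and 24 h. It was thus low at ZT15, ZT20 and ZT4 and higher at ZT12, the end of the light phase, by a log2 step of 2.54 ± 0.42 from 16 to 24 h. This is the fed level against which the 24 h fast was set. Arrdc3 averaged 109 ± 27.6, 59.3 ± 15.2, 109.7 ± 65.4 and 240.4 ± 61.4 CPM in fed hepatocyte nuclei at 3, 8, 16 and 24 h, also highest at 24 h. Arrdc1 was highest at 16 h among fed hepatocyte groups (edgeR F-test, adjusted p = 0.0172). Arrdc2 and Arrdc4 did not pass (edgeR F-test, adjusted p = 0.0640 and 0.1003), although DESeq2 called Arrdc2 (adjusted p = 0.0211). The background was 30.1% of genes, against 1 of the 3. In fed macrophage nuclei Txnip averaged 56.4 ± 13.1, 56.9 ± 13.4, 59.8 ± 7.94 and 58.8 ± 17.0 CPM at the 4 times. For Arrdc1, Arrdc2 and Arrdc4 there, the edgeR F-test gave adjusted p = 0.325, 0.0803 and 0.297, with 12.8% of genes called. At an unadjusted p under 0.05, edgeR gave 1 of the 3, Arrdc2 (0.0132), and DESeq2 also called Arrdc2 (adjusted p = 0.0386).

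Among fasted hepatocyte libraries the 3 genes tested all differed between times, where 44.9% of genes did. Txnip averaged 116 ± 52.9, 179.8 ± 47.1, 34.1 ± 19.5 and 52.6 ± 11.7 CPM at 3, 8, 16 and 24 h. Arrdc2 ran 78.3 ± 27.2, 16.5 ± 12.7, 5.13 ± 0.593 and 30.5 ± 19.6 CPM (edgeR F-test, adjusted p = 1.84e-06). Arrdc3 ran 60.8 ± 36.2, 52.6 ± 29.9, 156 ± 109 and 23.4 ± 3.82 CPM. The 2 steps that follow were chosen after the time courses were seen, and tests of the other steps are not given. From 8 to 16 h Arrdc2 was lower by a log2 step of -1.71 ± 0.47 (edgeR adjusted p = 0.00843) and Arrdc4 higher by 1.244 ± 0.31 (edgeR adjusted p = 0.00437), in a step that called 22.7% of genes. The same step, given as a value, was -2.45 ± 0.40 for Txnip and 1.52 ± 0.48 for Arrdc3. Arrdc2 was higher at 24 than at 16 h by 2.60 ± 0.47 (edgeR adjusted p = 0.000262), in a step that called 23.1% of genes and that was -2.71 ± 0.51 for Arrdc3. Arrdc1 and Arrdc4 passed the test over the 4 times with edgeR adjusted p = 0.00636 and 0.00551. Arrdc1 was lowest at 3 h (1.49 ± 0.219 CPM) and Arrdc4 at 8 h (6.06 ± 2.14 CPM).

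In fasted macrophage nuclei Arrdc2 and Arrdc1 differed between times and Arrdc4 did not pass, against 38.1% of genes. Arrdc2 averaged 19.8 ± 6.47, 17.7 ± 4.75, 7.21 ± 0.779 and 25.1 ± 8.74 CPM at 3, 8, 16 and 24 h (edgeR F-test, adjusted p = 0.000442), with its lowest level at 16 h in both cell types. Arrdc3 averaged 93.6 ± 22.6, 92.3 ± 25.1, 176 ± 137 and 83.9 ± 19.0 CPM, with replicate 4 at 16 h far above the rest. Arrdc1 passed with edgeR adjusted p = 0.0175, and without the library that stands apart its adjusted p was 0.0763. Txnip averaged 51.6 ± 22.1, 68.0 ± 14.99, 83.0 ± 31.1 and 72.7 ± 12.8 CPM. For Arrdc4 the edgeR F-test gave adjusted p = 0.419.

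Ranked by mean level over the 16 tagged groups, Txnip was highest in fasted hepatocyte nuclei at 8 h and at 3 h, followed by the 8 groups of macrophage nuclei and the 24 h hepatocyte groups, whose neighbours overlap. Its order breaks below fasted hepatocyte nuclei at 16 h, the lowest library of which (13.8 CPM) lies above all libraries of the fed hepatocyte groups of 3, 8 and 16 h (3.36 to 9.72 CPM). Arrdc3 was highest in fed and lowest in fasted hepatocyte nuclei at 24 h, and that lowest group did not overlap its neighbour, fed macrophage nuclei at 8 h. For Arrdc1 the 8 groups of hepatocyte nuclei (means of 1.49 to 3.55 CPM) all stood below the 8 groups of macrophage nuclei (13.5 to 23.4 CPM). Arrdc2 was highest in fasted hepatocyte nuclei at 3 h and lowest in fasted hepatocyte nuclei at 16 h, which did not overlap fasted macrophage nuclei at 16 h. Every neighbouring pair of Arrdc4 groups overlapped.

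Likeness to each gene was measured by Pearson's r over the 16 tagged group means of log2 CPM after the mean of each cell type was subtracted, among 12270 genes. The groups of a cell type share libraries of common origin and the fed groups recur in each contrast, so r is a description. The nearest genes were picked for following the same groups, so their fasting effects are given as values with no test. Txnip was most like Slc22a5, a carnitine transporter (r = 0.92), 1110008F13Rik (0.91), Cntrl (0.90), the Kruppel-like factor gene Klf10 (0.90) and Gak (0.90). Slc22a5 had log2 fold changes of 2.57, 3.49, 1.61 and 1.49 in hepatocyte nuclei at 3, 8, 16 and 24 h, and of 1.35, 1.097 and 1.12 in macrophage nuclei at 8, 16 and 24 h. Klf10 had 1.78 and 1.52 in hepatocyte nuclei at 3 and 8 h, and -0.34 to 0.14 in macrophage nuclei over the 4 times. Arrdc3 was most like Prmt10 (0.90), Plscr1 (0.84), Pgrmc1 (0.84), the cholesterol exporter gene Abca1 (0.84) and 2310030G06Rik (0.81), with log2 fold changes of -0.39 to -1.36 in hepatocyte nuclei at 24 h. Arrdc2 was most like Tob2 (0.96), N4bp2l1 (0.95) and Rhobtb1 (0.94), with log2 fold changes of 1.16, 1.74 and 1.35 in hepatocyte nuclei at 3 h. The nearest genes were Zfp414 (0.93), Pik3r2 (0.91) and the NEDD4-family ligase gene Wwp2 (0.91) for Arrdc1, and Odf2l (0.91), Scaper (0.90) and Ice2 (0.89) for Arrdc4. The 5 genes were less alike among themselves, from r = 0.57 between Arrdc1 and Arrdc4 to r = -0.75 between Arrdc1 and Arrdc2. For Txnip, r was 0.45 with Arrdc2, -0.27 with Arrdc3, -0.46 with Arrdc1 and -0.54 with Arrdc4.

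Genes around Txnip and the alpha-arrestins were described by lists, given as counts and medians. Without the library that stands apart, counts in macrophage nuclei at 3 h were 2 higher and 4 lower of the carbohydrate response genes described next. In the same order they were 10 and 0 of the glucocorticoid receptor gene and its targets, 3 and 0 of the FoxO list, and 1 and 0 of the thioredoxin system. They were 2 and 0 of the NEDD4-family ligases, 0 and 0 of the glucose transporters and 0 and 2 of the cargo receptors. The counts of the other lists were the same with and without that library, and Fkbp5, Foxo1, Nedd4l and Itch also passed without it. Genes tied to the carbohydrate response, which Mondo and Mlx factors control, more often fell than rose in fasted hepatocyte nuclei: of 19 genes 6 rose and 9 fell at 3 h, 4 rose and 10 fell at 8 h, 0 rose and 7 fell at 16 h, and 1 rose and 8 fell at 24 h. The list medians were -0.66, -0.32, -0.23 and -0.46 (log2), against -0.03, -0.02, 0.01 and -0.01 over all genes. Acly and Elovl6, enzymes of fatty acid synthesis and elongation, fell by 3.87 ± 0.30 and 4.11 ± 0.37 at 3 h (log2, edgeR adjusted p = 6.02e-10 and 4.98e-09). Of the factors themselves, Mlxipl was at -0.05 ± 0.18 at 3 h (edgeR adjusted p = 0.845) and fell by 1.14 ± 0.18 at 8 h (edgeR adjusted p = 1.81e-05). Mlx fell by 0.66 ± 0.12 and Mlxip rose by 0.56 ± 0.12 at 3 h (edgeR adjusted p = 5.14e-05 and 0.000464). In fed mice Mlxip was lower in hepatocyte than in macrophage nuclei by -2.57 ± 0.07 and Mlxipl higher by 1.45 ± 0.13 (log2, edgeR adjusted p = 8.02e-39 and 6.68e-15). In macrophage nuclei 2, 2, 1 and 1 of the 19 rose and 5, 4, 6 and 8 fell (medians -0.51, 0.14, -0.34 and -0.27, against -0.05, 0.01, 0.04 and -0.00 over all genes).

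Of a list of 15 genes, the glucocorticoid receptor gene Nr3c1 and targets of the receptor, most rose at 3 and 8 h in both cell types. Nr3c1 itself averaged 434, 335, 330 and 306 CPM in fasted hepatocyte nuclei at 3, 8, 16 and 24 h. Fed hepatocyte nuclei averaged 641, 498, 490 and 507 CPM of Nr3c1. The shares of all genes that rose and fell are given below with the other lists. In hepatocyte nuclei 12, 8, 5 and 5 of 15 rose and 1 fell at each time (medians 2.34, 1.26, 0.82 and 0.84), and in macrophage nuclei 11, 11, 4 and 5 rose and 0, 0, 0 and 1 fell (medians 1.65, 1.72, 0.69 and 1.07). Fkbp5, a chaperone gene induced by glucocorticoids, rose by 4.47 ± 0.50 in hepatocyte and 3.86 ± 0.47 in macrophage nuclei at 3 h (log2, edgeR adjusted p = 1.22e-07 and 7.88e-06). Of 14 tested FoxO factors and insulin-repressed targets, 11, 7, 0 and 1 rose and 0, 1, 3 and 2 fell in hepatocyte nuclei (medians 1.17, 0.65, 0.06 and 0.20). In macrophage nuclei 4, 2, 3 and 2 rose and none fell (medians 0.65, 0.50, 0.13 and 0.50). Foxo1 rose at 3 h by 1.69 ± 0.28 in hepatocyte and 1.2001 ± 0.21 in macrophage nuclei (log2, edgeR adjusted p = 2.04e-05 and 0.000502).

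Of 18 genes of the thioredoxin and glutaredoxin system, which Txnip meets as a thioredoxin-binding protein, 2, 5, 5 and 3 rose and 3, 1, 1 and 1 fell in hepatocyte nuclei, and 1, 2, 5 and 1 rose and 1, 0, 0 and 1 fell in macrophage nuclei. The list medians ran from -0.06 to 0.18 in hepatocyte and from -0.13 to 0.25 in macrophage nuclei. Txn1, the thioredoxin itself, fell by 0.36 ± 0.13 at 3 h in hepatocyte nuclei (log2, edgeR adjusted p = 0.0251), and Glrx, a glutaredoxin, rose by 1.29 ± 0.22 there (edgeR adjusted p = 3.18e-05). Among NEDD4-family ligases, 2 of 8 rose at 3, 8 and 24 h and none at 16 h in hepatocyte nuclei, where at 16 h Nedd4l was at 0.41 ± 0.15 (edgeR adjusted p = 0.0574). In macrophage nuclei 4, 1, 1 and 1 of 9 rose, and 1 fell at 24 h. The ligase medians ran from 0.00 to 0.19 in hepatocyte and from 0.03 to 0.30 in macrophage nuclei. Nedd4l rose at all 4 times in macrophage nuclei (log2 0.62, 0.83, 0.51 and 0.56, edgeR adjusted p = 0.00613, 0.000459, 0.0184 and 0.00975) and at 3, 8 and 24 h in hepatocyte nuclei (0.60, 0.79 and 0.86, edgeR adjusted p = 0.00211, 0.000147 and 0.000163). Itch, another ligase that binds alpha-arrestins, rose at 3 h by 0.63 in hepatocyte and 0.54 in macrophage nuclei (edgeR adjusted p = 2.36e-05 and 0.00293). Of genes of the glucose transporter family, not all of which are known cargo of Txnip or Arrdc4, 1 of 8 fell at 3, 8 and 24 h and none rose in hepatocyte nuclei. Slc2a1 and Slc2a2, the widely expressed and the liver transporter, had 0.03 ± 0.29 and -0.01 ± 0.29 at 3 h and did not pass (edgeR adjusted p = 0.948 and 0.9798). Slc2a9 fell by 0.79 ± 0.26 at 3 h and 1.35 ± 0.26 at 8 h (edgeR adjusted p = 0.0167 and 0.000195). In macrophage nuclei 1, 0, 0 and 2 of 9 transporters rose and 1 fell at 8 h. Transporter medians were -0.21, -0.44, -0.55 and -0.20 in hepatocyte nuclei and -0.04, 0.06, 0.15 and 0.41 in macrophage nuclei. Of 10 tested receptors that alpha-arrestins carry as cargo, in hepatocyte nuclei 2, 1, 1 and 0 rose and 2, 3, 4 and 1 fell, and of 11 in macrophage nuclei 0, 0, 1 and 1 rose and 2, 1, 2 and 2 fell, with medians from -0.20 to 0.25 and from -0.15 to 0.13. Over all genes 19.5%, 18.0%, 9.55% and 11.6% rose in hepatocyte nuclei and 7.70%, 7.44%, 7.72% and 5.31% rose in macrophage nuclei at 3, 8, 16 and 24 h. The shares that fell were 20.4%, 20.7%, 8.55% and 12.4% in hepatocyte nuclei and 4.68%, 5.40%, 5.99% and 6.35% in macrophage nuclei. The other arrestin-fold genes, 5 tested, had 1, 1, 1 and 3 that rose and 0, 0, 1 and 0 that fell in hepatocyte nuclei, and 0, 0, 0 and 1 that rose in macrophage nuclei (medians -0.07 to 0.35 and -0.18 to 0.14). Vps26a, a retromer subunit of arrestin fold, rose by 0.89 ± 0.13 at 3 h in hepatocyte nuclei (log2, edgeR adjusted p = 7.23e-06). Of the NLRP3 inflammasome, of which Txnip has been described as a partner, 1, 2, 0 and 1 of 10 genes rose and 2, 2, 2 and 1 fell in hepatocyte nuclei, and of 11 genes 0, 0, 1 and 0 rose and 0, 1, 0 and 0 fell in macrophage nuclei (medians -0.18 to 0.64 and -0.38 to -0.04). Nlrp3 itself had -0.64 in hepatocyte and -0.11 in macrophage nuclei at 3 h (edgeR adjusted p = 0.298 and 0.637). Its level there was very low in hepatocyte nuclei, 0.375 CPM in fasted and 0.640 CPM in fed, against 55.2 and 58.7 CPM in macrophage nuclei.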

How the data were processed

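Total RNA of nuclei was made into stranded libraries without poly-A selection and sequenced as paired reads of 50 bases, per the labels' protocols. The authors deposited raw counts per gene for 80 libraries, and STAR 2.4.2a and build mm10 are named, per the submitters' processing notes. The sources used here name no counting tool and do not say whether it used strand. Whole gene bodies are listed, so intronic reads may be included. The authors' deposited table of selected macrophage genes gives log2 fold changes and adjusted p-values, for which DESeq2 1.24.0 is named, per the submitters' processing notes. A further 64 per-sample columns were not used.

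Counts were tested with edgeR 4.0.16 in R 4.3.3 by the quasi-likelihood test with robust fitting, TMM scaling, a filter on low counts (minimum count 10, minimum total 15) and Benjamini-Hochberg adjustment over all genes tested, with a threshold of 0.05. The hepatocyte and macrophage fasting fits each used the 32 tagged libraries of their line, and the comparison of cell types all 64. Standard errors were derived from the log2 fold change and its F value. CPM were computed with 1 TMM scaling over all 80 libraries, and log2 CPM with a prior count of 2. Planned tests of Txnip and Arrdc3 over time and between fed cell types are not given, since they use the values by which these genes were chosen. Steps between neighbouring times were added after seeing the data and were not run under alternatives. They were run for fed and fasted nuclei of both cell types, and only some are given. Scripts were tested on simulated counts.

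The genes and the gene lists were chosen with earlier results of these data known. Most alike genes were the 5 with the highest r for Txnip and for Arrdc3, and the 3 for each other gene, among genes averaging 1 CPM or more. From each list, up to 4 genes with the smallest edgeR p, and some regulators set by name, could be named. Alternatives were RLE scaling, no filter on low counts, DESeq2 1.42.0, limma 3.58.1 (voom), the 8 libraries of a time alone, and the run of library numbers as a term. Each library was also left out, but for tagged over whole liver nuclei only each pool. Of 96 replicate pairs, 0 agreed within counting noise.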

Additional observations from a re-analysis of the deposited data

Results flagged for a closer look

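In each of 80 groups of 4 libraries (5 genes in 16 tagged groups), the gap between an extreme library and its nearest neighbour was divided by the range of the group, and a ratio above Dixon's critical value was taken as far from the others. Chance alone passes this limit in about 1 in 20 groups. Txnip in fasted hepatocyte nuclei at 3 h had 1 high library, replicate 1, with 194 CPM beside 79.1 to 96.1 CPM in the other 3 (ratio 0.853). Txnip in fasted macrophage nuclei at 24 h had a low replicate 1, with 53.6 CPM beside 76.9 to 81.4 CPM (ratio 0.836). Arrdc1 in fasted macrophage nuclei at 3 h had a low replicate 3, with 8.22 CPM beside 14.6 to 15.6 CPM (ratio 0.8705), and this is the library that stood apart over all genes. Arrdc2 in fed macrophage nuclei at 24 h had a high replicate 3, with 30.9 CPM beside 9.80 to 10.9 CPM (ratio 0.947). Arrdc4 in fed hepatocyte nuclei at 24 h had a low replicate 4, with 9.81 CPM beside 15.6 to 16.7 CPM (ratio 0.835).

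The fasting effect on Arrdc2 at 3 h differed between the cell types by a test of the difference itself, with a log2 value of 1.76 for hepatocyte minus macrophage nuclei (edgeR adjusted p = 0.0253).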

How the results depend on the processing

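No paired analysis was possible because the replicate numbers follow accession order and the labels pair no libraries. Leaving out each library in turn gave 832 values with a test. For tagged over whole liver nuclei only pools were left out. Of the 832 values, 765 kept direction and side of the threshold, 16 lost a call, 7 gained one and 44 changed sign. Of 320 values of Txnip and Arrdc3 with no test, 17 changed sign, among them Arrdc3 in macrophage nuclei at 24 h (-0.22 to 0.12). Leaving out libraries for the tests over time, for fed nuclei and for list counts was chosen after seeing the data. Of the values with a test, RLE scaling changed 0 of 66, no filter 1 of 66, the 8 libraries of a time 3 of 24, the library-number run 1 of 24, DESeq2 2 of 66 and limma-voom 2 of 12, and the cause was not tested. Limma-voom also turned the sign of 1 of 8 values with no test.

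Counts of genes called moved with the 8 libraries of a time alone to 885 in hepatocyte nuclei at 16 h (2343 with all 32), and in macrophage nuclei to 247 at 3 h (1716) and 989 at 16 h (1901). For the difference between cell types at 16 h they were 48 with no filter and 134 with DESeq2 (75 otherwise). Without a library they ran 1485 to 2540 in hepatocyte nuclei at 16 h, and in macrophage nuclei 702 to 2720 at 3 h, 702 to 1741 at 8 h, 922 to 2270 at 16 h and 1134 to 1721 for time of day in fed mice. For the difference between cell types they ran 989 to 1704, 696 to 1162, 24 to 130 and 246 to 900 at the 4 times. The calls of that difference at 3 h split into 869 higher and 616 lower with TMM, and 684 higher and 746 lower with RLE. Tagged hepatocyte nuclei over whole liver split into 3779 higher and 2684 lower, against 3135 and 3543 with DESeq2 and 2934 and 3731 with no filter.

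Without 1 pool, Txnip in hepatocyte nuclei over whole liver ran -0.78 to -0.41 and Arrdc3 in macrophage nuclei over whole liver -0.46 to -0.28. Among values with a test, signs changed for uncalled ones. The library-number run gave Arrdc4 -0.00106 in macrophage nuclei at 16 h, and limma-voom gave a difference between cell types at 16 h of -0.0270 for Arrdc1 and 0.00655 for Arrdc4. Without a library, Arrdc4 ran -0.34 to 0.10 and -0.38 to 0.22 in hepatocyte nuclei at 3 and 16 h and -0.20 to 0.21 and -0.10 to 0.13 in macrophage nuclei at 16 and 24 h. Arrdc1 ran -0.18 to 0.12 in hepatocyte and -0.16 to 0.0122 in macrophage nuclei at 24 h, and -0.0276 to 0.14 in the pools. The differences between cell types ran for Arrdc1 -0.00055 to 0.27, -0.19 to 0.0390, -0.15 to 0.18 and -0.12 to 0.19 at the 4 times, for Arrdc2 -0.70 to 0.12 at 8 h and -0.82 to 0.0322 at 24 h, and for Arrdc4 -0.32 to 0.28 at 16 h. The lowest count of the 5 genes was 19 reads, for Arrdc1 in hepatocyte nuclei, where the counting error is largest.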
